A study of Mus musculus with 9 samples.

Results

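The genes described here are 10 transcripts that stood out in nuclei of control cardiomyocytes at postnatal day 6: Srpk3, Rab39, Rap1gap, Vwa1, Tspear, Frmd5, Tmigd1, Rnf207, Mir133a-1 and Mir133a-2. They were chosen by their measured counts, because they led the day 6 cardiomyocyte nuclei over the other nuclei and ages of these same libraries, and they are 10 of the 37840 genes listed. Their excess at day 6 is therefore a property of the choice and is described without a test. The comparison of knockout with control hearts at the later age was not used in the choice and was tested. RNA in single nuclei of mouse ventricles was counted by sNucDrop-Seq, in which nuclei are caught in droplets with barcoded beads that prime on poly(A) tails, so that each count is a unique molecular identifier (UMI).

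The 9 libraries came from C57BL6/J mice and fell into 3 groups of 3. The KO P10 hearts had the genotype ERRalphaKO/ERRgammaKO and were 9 to 10 days old. The control P10 hearts, of the same age, and the control P6 hearts, 6 days old, had the genotype ERRalphaHet/ERRgammaWT, so every control also lacked 1 allele of ERRalpha. The labels do not say how or in which cells the genes were removed, nor whether a library came from 1 heart or from several. ERRalpha and ERRgamma are nuclear receptors that activate genes of mitochondrial energy metabolism and contraction in the heart. The comparisons addressed how the ventricle matures after birth and how that differs without both receptors.

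In the first days after birth, mouse cardiomyocytes stop dividing, change to fatty acids as their main fuel and replace fetal with adult isoforms of contractile and channel proteins. The genes described here serve several of the layers that change. Some act inside the cell as kinases, GTPases and GTPase regulators, some at membranes, junctions and the matrix, and a pair of them carry the hairpins of the muscle microRNA miR-133a. In heart and skeletal muscle, miR-133a is made together with miR-1 from longer primary transcripts and restrains proliferation and the smooth muscle gene programme.

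Library totals ranged from 2608067 to 5769630 UMIs, and mitochondrially encoded genes took 0.888% to 40.8% of them, the highest share being that of control P10 library 1. Clustering without the 10 genes gave 14 clusters, of which 3, numbered 4, 5 and 8, were named cardiomyocyte-like from markers such as Ttn and Ryr2. Each library held 725 to 1428 cardiomyocyte-like nuclei, and their summed counts held 754657 to 1734142 UMIs. Levels are UMIs per 1000000 UMIs of these sums after TMM scaling (CPM). Esrra, which encodes ERRalpha, stood at 6.60, 24.9 and 22.2 CPM in KO P10 libraries 1 to 3 and at 114, 103 and 74.6 CPM in control P10 libraries. Esrrg, which encodes ERRgamma, stood at 897, 671 and 811 CPM in KO P10 and at 2119, 1342 and 1693 CPM in control P10. Both were lower in every KO P10 library than in every control P10 library (edgeR, quasi-likelihood F test; adjusted p by Benjamini-Hochberg = 0.000383 and 0.0141), the second call being lost without control P10 library 3, KO P10 library 2 or KO P10 library 3. Sex was not recorded, and the female-specific RNA Xist had 4656 to 8297 UMIs in the control P6 libraries, beside 29 to 35 of Y-linked genes. Among P10 libraries it had 5750 UMIs in KO P10 library 1 and 1934 in control P10 library 1, which held 12 UMIs of Y-linked genes each. KO P10 library 2 had 889 UMIs of Xist beside 1702 of Y-linked genes, and the other 3 had 2 to 5 UMIs of Xist beside 1492 to 1975 of Y-linked genes. These counts cover all barcodes of a library, also those left out of the sums. Control P10 libraries 2 and 3 thus differed from control P6 in these counts as well as in age. The part of sex in the comparison of control P10 with control P6 was not tested. The labels do not state that libraries came from separate animals, so p-values measure the spread between libraries.

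Srpk3, Rab39, Rap1gap, Frmd5 and Tmigd1, 5 of the 10, had entries among the RefSeq promoter sequences of GRCm38.p6, which run from 250 bases before a start to 50 bases after it. The windows of Srpk3, of the genes Rab39 and Rap1gap that were lower in KO P10, and of Frmd5 are shown 5′ to 3′ on the strand of the gene, because their letters can be read beside the levels described next. Capitals mark matches, on either strand, to a MEF2 site or to AGGTCA, the core that nuclear receptors bind. They lie at chrX:73774155-73774454 (plus strand), chr9:53706183-53706482 (minus strand), chr4:137664476-137664775 (plus strand) and chr2:121807008-121807307 (minus strand).
Srpk3: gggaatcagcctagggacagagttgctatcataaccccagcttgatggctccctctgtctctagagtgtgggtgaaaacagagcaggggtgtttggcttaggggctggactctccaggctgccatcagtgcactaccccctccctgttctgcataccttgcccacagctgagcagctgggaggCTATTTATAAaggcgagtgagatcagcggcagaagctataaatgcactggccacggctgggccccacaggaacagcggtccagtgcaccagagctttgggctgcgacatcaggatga
Rab39: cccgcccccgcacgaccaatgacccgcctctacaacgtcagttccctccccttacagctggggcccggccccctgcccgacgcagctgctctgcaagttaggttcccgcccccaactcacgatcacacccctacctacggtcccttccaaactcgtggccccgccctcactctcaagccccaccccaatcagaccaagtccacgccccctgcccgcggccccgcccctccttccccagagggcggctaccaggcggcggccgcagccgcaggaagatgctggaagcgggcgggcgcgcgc
Rap1gap: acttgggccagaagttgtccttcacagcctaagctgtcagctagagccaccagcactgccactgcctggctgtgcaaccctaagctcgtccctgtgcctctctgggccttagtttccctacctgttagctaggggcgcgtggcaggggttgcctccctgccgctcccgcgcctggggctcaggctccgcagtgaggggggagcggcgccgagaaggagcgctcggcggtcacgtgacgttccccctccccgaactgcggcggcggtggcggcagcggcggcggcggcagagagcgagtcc
Frmd5: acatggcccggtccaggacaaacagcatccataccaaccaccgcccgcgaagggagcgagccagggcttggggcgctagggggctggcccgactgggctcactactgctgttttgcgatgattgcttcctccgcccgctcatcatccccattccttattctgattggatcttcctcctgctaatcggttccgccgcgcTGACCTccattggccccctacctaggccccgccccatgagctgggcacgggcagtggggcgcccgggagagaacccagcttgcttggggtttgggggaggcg
The Srpk3 window held 1 MEF2 site, a kind of match found in 3.19% of the 32851 promoter windows. The Frmd5 window held 1 match to AGGTCA, found in 16.3% of windows. The longer ERR element TNAAGGTCA, which contains AGGTCA, was found in 1.28% of windows and had 0 matches in the windows of these 5 genes, 7 alternative Rap1gap starts included. A second window of Tmigd1 held 1 match to the GATA motif AGATAA, found in 11.2% of windows. The motif CANNTG, the E-box, was in 72.3% of windows. The shares of G and C were 56.7% for Srpk3, 70.7% for Rab39, 68.7% for Rap1gap and 64.3% for Frmd5, against a median of 52.7% over all windows. A match describes the letters of a window and does not locate a bound factor.

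**Figure D1:**
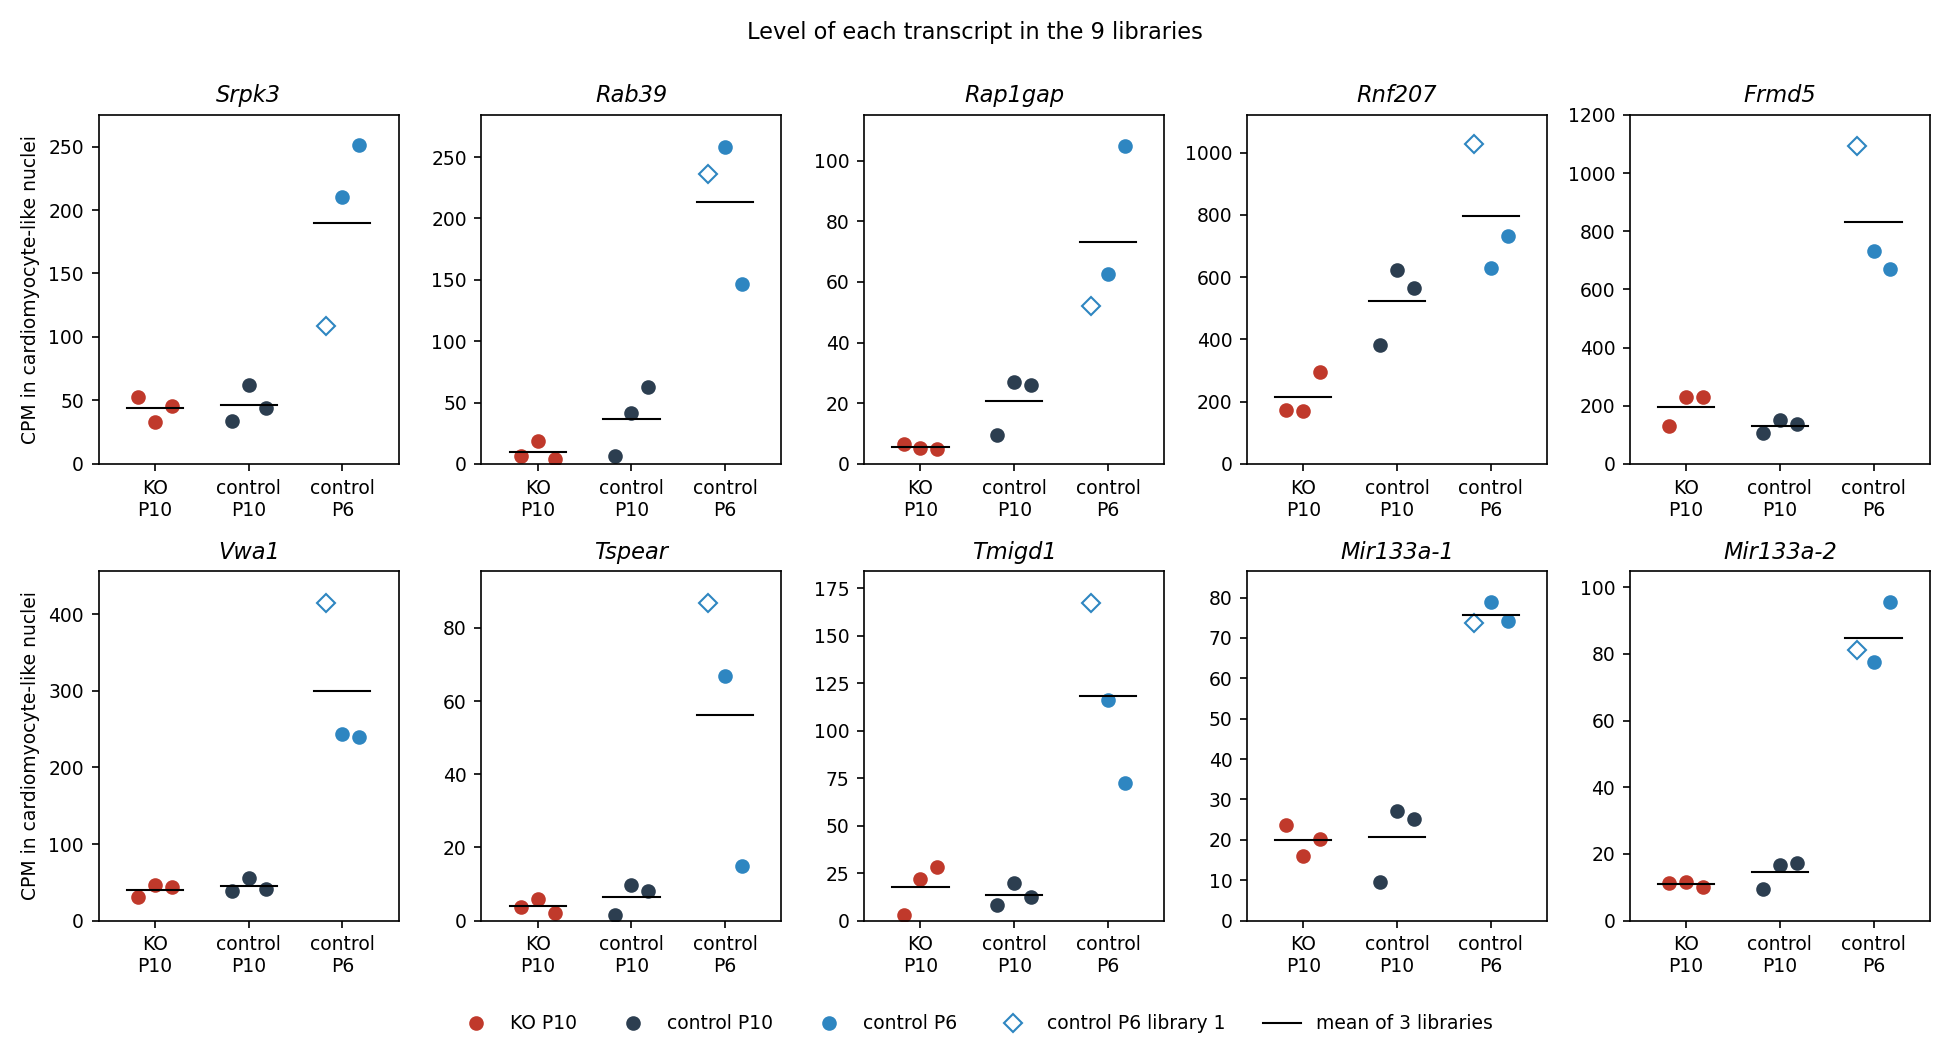
Level of each of the 10 transcripts in cardiomyocyte-like nuclei, in CPM on a linear axis from 0, with 1 point per library, a line at the mean of 3 libraries and an open diamond for control P6 library 1. Every control P6 point lies above every P10 point of the same gene, and only Rap1gap and Rnf207 have all KO P10 points below all control P10 points.

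Srpk3 encodes a kinase of splicing factors with serine and arginine repeats that is made in heart and skeletal muscle and is a known target of MEF2. The gene spans 4521 bases of the X chromosome (73774405 to 73778925 on the plus strand; GENCODE vM21, GRCm38). Srpk3 stood at 52.8, 32.99 and 45.4 CPM in KO P10, at 33.6, 62.3 and 43.8 CPM in control P10 and at 108, 209.97 and 251 CPM in control P6. All 3 control P6 libraries were above all P10 libraries, and KO P10 and control P10 overlapped. Control P10 over control P6 was log2 −1.99 ± 0.31 (SE), and −2.24 without control P6 library 1, the lowest of its group. KO P10 over control P10 was log2 −0.14 ± 0.33 (edgeR adjusted p = 0.827). Srpk3 is X-linked, and the groups differed in their Xist counts as given above, KO P10 library 2 holding both Xist and Y-linked UMIs. Those counts cover all barcodes. The 464 barcodes that KO P10 library 2 shared with library 1 were left out of the Srpk3 levels. The part of such differences in the Srpk3 levels was not tested.

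Rap1gap encodes a GTPase-activating protein that turns off Rap1, a small GTPase of cell adhesion and of cyclic AMP signalling. It lies on chromosome 4 (137664726 to 137729861, on the plus strand). Rap1gap stood at 6.60, 5.13 and 5.04 CPM in KO P10, at 9.60, 27.1 and 25.9 CPM in control P10 and at 52.0, 62.5 and 105 CPM in control P6. The 3 groups did not overlap, KO P10 being lowest and control P6 highest. Few UMIs separated control P10 library 1 from KO P10. In cluster 5 the UMIs of Rap1gap were 5, 3 and 3 in KO P10 and 6 in control P10 library 1. In cluster 4 they were 2, 2 and 1 in KO P10 and 0 in control P10 library 1. Rap1gap fell in KO P10, with log2 −1.99 ± 0.44 for KO P10 over control P10 (SE; edgeR adjusted p = 0.00683), and it was called in 20 of 20 alternative settings. The level in control P10 over control P6 was log2 −1.70 ± 0.33.

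Rab39 encodes a small GTPase of vesicle and endolysosomal traffic. It lies on chromosome 9 (53684110 to 53706232, minus strand). Rab39 stood at 6.60, 18.3 and 4.03 CPM in KO P10, at 6.40, 41.5 and 62.3 CPM in control P10 and at 236, 258 and 146 CPM in control P6. Control P10 library 1 lay within the range of KO P10, the other 2 control P10 libraries lay above it, and control P6 stood above both groups. Rab39 fell in KO P10, with log2 −1.96 ± 0.55 (SE; edgeR adjusted p = 0.0257). The call was lost with DESeq2, without control P10 library 3, without KO P10 library 1 and without KO P10 library 3, and over all alternatives the adjusted p ranged between 1.39e-06 and 0.168. Control P10 over control P6 was log2 −2.42 ± 0.45.

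Rnf207 encodes a cardiac RING finger protein that promotes the HERG potassium channel, and variants near the human gene are linked to the length of repolarization. It lies on chromosome 4 (152307019 to 152318993, minus strand), and the gene Icmt overlaps its end on the opposite strand. Rnf207 stood at 174, 172 and 296 CPM in KO P10, at 381, 621 and 567 CPM in control P10 and at 1026, 631 and 733 CPM in control P6. The 3 groups did not overlap, although the highest control P10 library and the lowest control P6 library were close. Rnf207 fell in KO P10, with log2 −1.30 ± 0.29 (SE; edgeR adjusted p = 0.00816), and it too was called in 20 of 20 alternative settings. Control P10 over control P6 was log2 −0.60 ± 0.29, the value nearest to 0 among the 10 genes, and −0.36 without control P6 library 1. Without recorded strand, reads of Icmt could not be separated at the overlap, and Icmt averaged 6.19 ± 0.755 CPM in KO P10, 8.50 ± 1.85 CPM in control P10 and 6.46 ± 2.01 CPM in control P6 (SD, n = 3 each).

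The next genes act at the cell surface or in the matrix. Frmd5 encodes a FERM domain protein of cell adhesion (chromosome 2, 121545529 to 121807087, minus strand). Frmd5 stood at 131, 229 and 229.9 CPM in KO P10, at 107, 151 and 137 CPM in control P10 and at 1095, 733 and 671 CPM in control P6. KO P10 and control P10 overlapped through KO P10 library 1, and control P6 stood far above both. KO P10 over control P10 was log2 0.57 ± 0.28 (SE; edgeR adjusted p = 0.191), the largest positive value of the set, and control P10 over control P6 was log2 −2.65 ± 0.29.

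Vwa1 encodes a von Willebrand A domain protein of basement membranes that binds perlecan (chromosome 4, 155768149 to 155774698, minus strand). Vwa1 stood at 31.1, 46.2 and 44.4 CPM in KO P10, at 38.4, 55.97 and 40.7 CPM in control P10 and at 415, 244 and 240.1 CPM in control P6. The P10 groups overlapped, and control P6 library 1 stood apart from the other 2 control P6 libraries, which were close to each other. KO P10 over control P10 was log2 −0.17 ± 0.29 (SE; edgeR adjusted p = 0.754), and control P10 over control P6 was log2 −2.71 ± 0.28, or −2.38 without control P6 library 1.

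Tspear encodes a secreted protein with EAR repeats, known in humans from hearing and from teeth and hair follicles (chromosome 10, 77686569 to 77887021, on the plus strand). Its span holds 26 other annotated genes, most of them small keratin-associated genes or predicted genes. Tspear stood at 3.77, 5.86 and 2.02 CPM in KO P10, at 1.60, 9.81 and 8.02 CPM in control P10 and at 86.7, 67.0 and 14.8 CPM in control P6. The P10 groups overlapped, and the control P6 libraries were widely spread, library 3 being closest to the P10 values. KO P10 over control P10 was log2 −0.86 ± 0.74 (SE; edgeR adjusted p = 0.475), and control P10 over control P6 was log2 −2.89 ± 0.54. In a fit of the KO P10 and control P10 libraries alone, Tspear did not pass the filter on low counts. Its KO P10 test thus depended on the counts of control P6, the group it was chosen for.

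Tmigd1 encodes a membrane protein with immunoglobulin domains that is known from kidney and intestinal epithelium (chromosome 11, 76902159 to 76916587, on the plus strand). Tmigd1 stood at 2.83, 22.0 and 28.2 CPM in KO P10, at 8.0, 19.6 and 12.3 CPM in control P10 and at 167, 116 and 72.3 CPM in control P6. The KO P10 libraries spanned the whole range of control P10, and control P6 stood above both. KO P10 over control P10 was log2 0.31 ± 0.52 (SE; edgeR adjusted p = 0.746). Control P10 over control P6 was log2 −3.04 ± 0.46, the most negative value of the set.

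Mir133a-1 lies within 68 bases on chromosome 18 (minus strand), inside the annotated host transcript Mir133a-1hg on the same strand and inside Mib1, a ubiquitin ligase gene of Notch signalling, on the opposite strand. Mir133a-1 stood at 23.6, 16.1 and 20.2 CPM in KO P10, at 9.60, 27.1 and 25.3 CPM in control P10 and at 73.7, 78.9 and 74.2 CPM in control P6. Mir133a-2, on chromosome 2 (180398379 to 180398482 on the plus strand), stood at 11.3, 11.7 and 10.1 CPM in KO P10, at 9.60, 16.7 and 17.3 CPM in control P10 and at 81.3, 77.4 and 95.5 CPM in control P6. For both rows the control P6 libraries were close to each other and above all P10 libraries, and control P10 library 1 was the lowest of its group. KO P10 over control P10 was log2 −0.17 ± 0.32 for Mir133a-1 and −0.47 ± 0.31 for Mir133a-2 (SE; edgeR adjusted p = 0.776 and 0.352). Control P10 over control P6 was log2 −1.76 ± 0.29 for Mir133a-1 and −2.45 ± 0.26 for Mir133a-2. These counts come from poly(A)-primed nuclear RNA over the hairpin rows and do not measure mature miR-133a.

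The host row did not follow the hairpin row, a comparison made after the values were seen. Mir133a-1hg stood at 256, 276 and 216 CPM in KO P10, at 342, 298 and 258 CPM in control P10 and at 285, 196 and 219 CPM in control P6. All 3 groups overlapped. The log2 fold change was −0.26 ± 0.23 for KO P10 over control P10 and 0.36 ± 0.23 for control P10 over control P6 (SE; edgeR adjusted p = 0.487 and 0.288). Set against the UMIs of the host row, the UMIs of the hairpin row came to 9.19%, 5.85% and 9.35% in KO P10, 2.80%, 9.09% and 9.79% in control P10 and 25.9%, 40.3% and 33.9% in control P6. The control P6 percentages were thus above all P10 percentages while the host row overlapped between groups. Mib1 averaged 107 ± 38.6 CPM in KO P10, 126 ± 40.4 CPM in control P10 and 72.3 ± 26.9 CPM in control P6 (SD, n = 3 each). How reads were divided between the hairpin, host and Mib1 rows is not given in the sources used here, and its part in these differences was not tested.

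**Figure D2:**
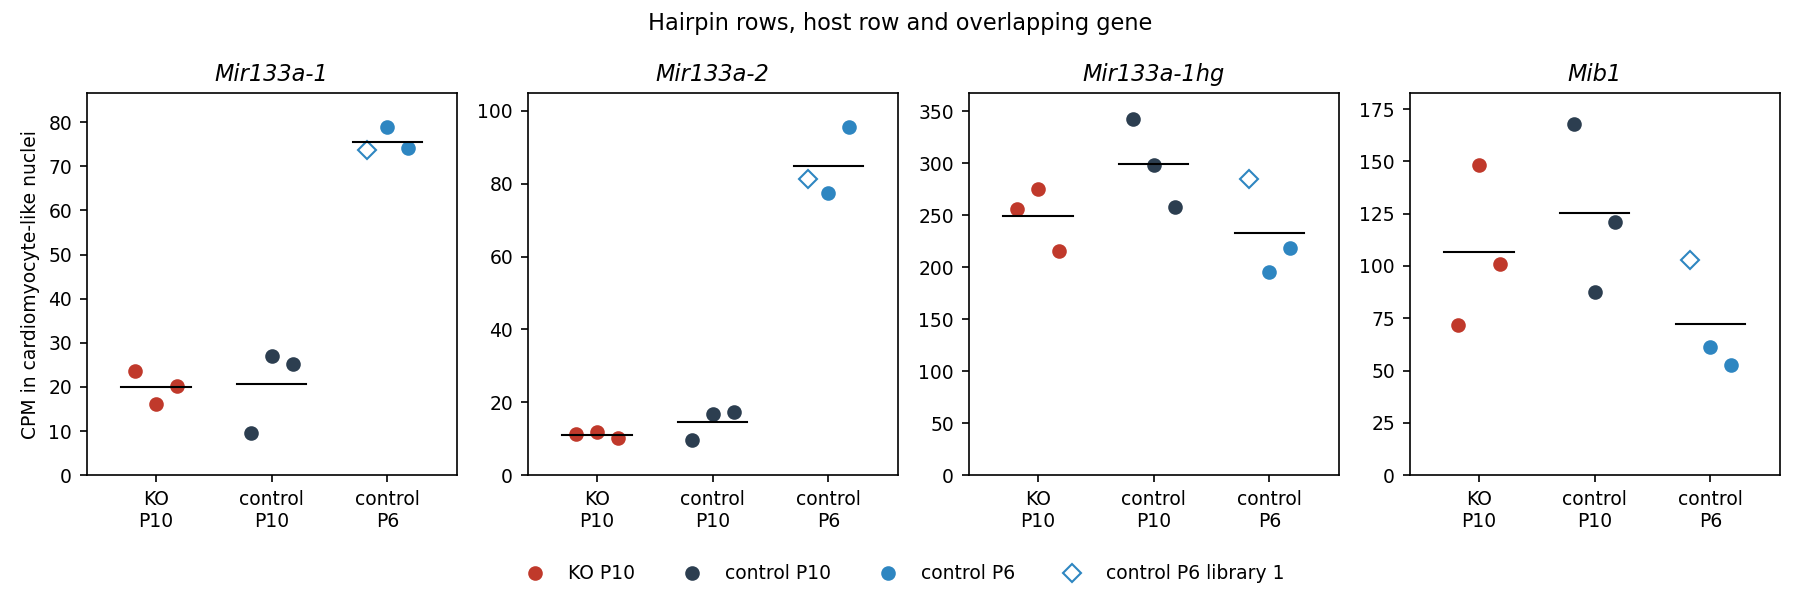
Levels of the hairpin rows Mir133a-1 and Mir133a-2, the host row Mir133a-1hg and Mib1 in cardiomyocyte-like nuclei, in CPM from 0, with 1 point per library and a line at the mean. The hairpin rows separate control P6 from P10, whereas Mir133a-1hg overlaps between all 3 groups.

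In KO P10 against control P10, 3 of the 10 genes were called lower by edgeR, Rap1gap, Rab39 and Rnf207, and 2 by DESeq2, which did not call Rab39. Of the 10, Tspear passed the filter on low counts only with control P6 in the fit. The number called higher was 0 by either tool, and 0 genes were higher at an unadjusted edgeR p under 0.05. Among all 10315 genes tested in cardiomyocyte-like nuclei, 6.51% were called lower, 6.64% higher and 13.1% in either direction. The median log2 fold change of the 10 genes was −0.32, against 0.01 over all genes, and 8 of the 10 values were negative. For 2 of the 10, Rap1gap and Rnf207, all KO P10 libraries were below all control P10 libraries, as they were for 14.9% of all genes tested. In control P10 against control P6 all 10 values were negative, with a median of −2.44 against −0.03 over all genes, and in no gene did the groups overlap, control P10 being wholly below control P6 in 19.4% of all genes. In that comparison 8.99% of all genes were called lower, 8.28% higher and 17.3% in either direction, and since it served to choose the genes, nothing is read from their count. Both comparisons share the control P10 libraries. All 10 genes also stood lower in every KO P10 library than in every control P6 library, as did 19.4% of all genes. The genes were chosen as high in control P6, so nothing is read from this or from the lack of overlap with control P10.

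**Figure D3:**
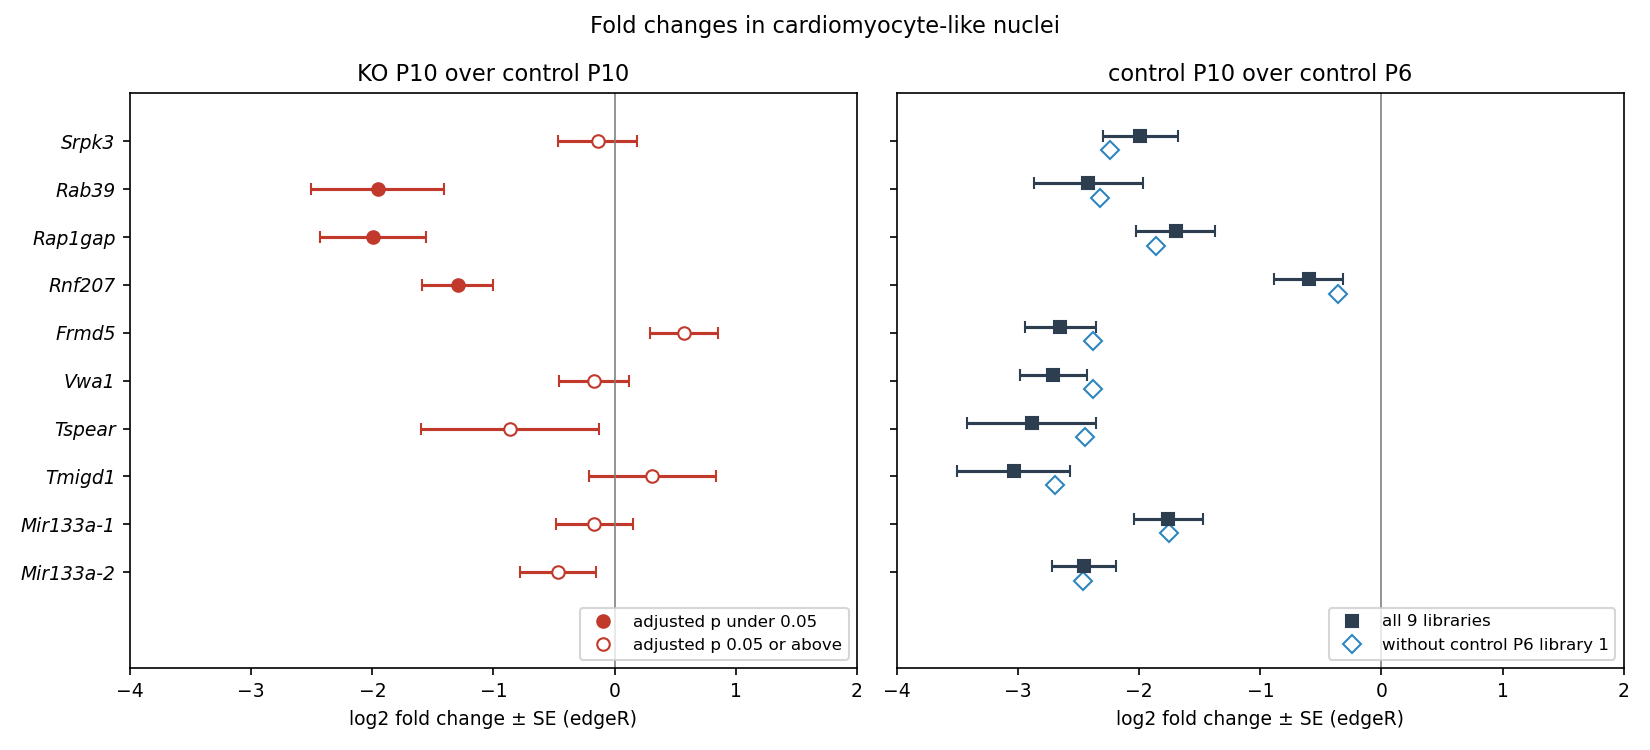
Log2 fold changes ± SE (edgeR) of the 10 transcripts in cardiomyocyte-like nuclei, KO P10 over control P10 on the left, filled where the adjusted p was under 0.05, and control P10 over control P6 on the right, with an open diamond for the value without control P6 library 1. On the left Rap1gap, Rab39 and Rnf207 are called and lie between −1.99 and −1.30, and on the right all points are below 0, nearest to it for Rnf207.

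Control P6 library 1 differed from libraries 2 and 3 in the balance of the 10 genes. It was the highest of the 3 for 5 genes, at 2.12 times the mean of libraries 2 and 3 for Tspear, 1.77 times for Tmigd1, 1.71 times for Vwa1, 1.56 times for Frmd5 and 1.51 times for Rnf207. It was the lowest for 3, at 0.470 times for Srpk3, 0.622 times for Rap1gap and 0.963 times for Mir133a-1, and lay between the others for Rab39 and Mir133a-2. Tspear, Tmigd1, Vwa1, Frmd5 and Rnf207 thus stood high in that library, and Srpk3 and Rap1gap low. Without it, control P6 was still above control P10 for every gene, with log2 values of control P10 over control P6 between −2.70 for Tmigd1 and −0.36 for Rnf207. Malat1, an RNA kept in nuclei, took 21.0% of cardiomyocyte-like UMIs in that library and 16.2% and 15.3% in control P6 libraries 2 and 3, and its part in these differences was not tested.

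Because nuclei of the 3 groups fell into different cardiomyocyte-like clusters, the 10 genes were also summed within single clusters of each library. Cluster 5 held 551, 259 and 646 nuclei of KO P10, 509, 811 and 864 of control P10 and 153, 138 and 86 of control P6. Cluster 4 held 230, 268 and 206 nuclei of KO P10, 216, 606 and 557 of control P10 and 723, 989 and 1072 of control P6. Cluster 8 was mostly KO P10 library 2, with 730 of its 939 nuclei.

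Within a library, clusters 5 and 4 had close summed levels. In cluster 5 the 10 genes held 503, 536 and 674 CPM in KO P10, 497, 1049.95 and 894 CPM in control P10 and 3206, 2293 and 2239 CPM in control P6, here without TMM scaling. In cluster 4 they held 439, 442 and 584 CPM in KO P10, 513, 1054 and 851 in control P10 and 3151, 2554 and 2610.1 in control P6. Within either cluster all control P6 libraries were above all P10 libraries. Control P10 library 1 lay below the KO P10 libraries in cluster 5 and within their range in cluster 4, and the other 2 control P10 libraries lay above them. Rnf207 made up most of the control P10 sums. In cluster 5 it held 202, 164 and 283 CPM in KO P10 and 318, 632 and 547 in control P10. Frmd5 went the other way, with 143, 204 and 237 in KO P10 and 86.9, 150 and 121 in control P10. The P10 sums thus do not describe each of the 10 genes. Cluster 11, led by cycling genes such as Ect2 and left unnamed, held 426 CPM in KO P10 library 3, 455 and 431 in control P10 libraries 2 and 3 and 2005 and 2033 in control P6 libraries 2 and 3, the libraries with at least 50 of its nuclei.

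**Figure D4:**
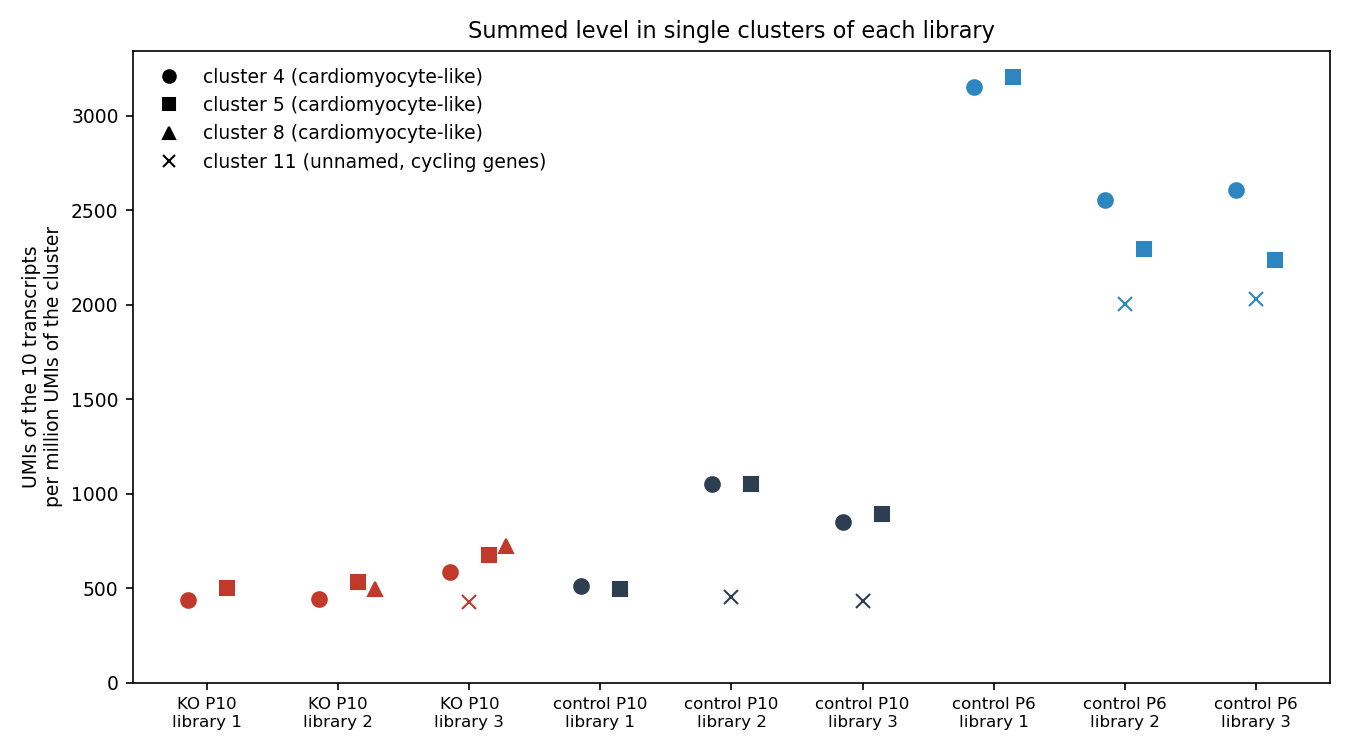
Summed level of the 10 transcripts, in CPM of all UMIs of a cluster, for each library and each cluster with at least 50 nuclei in it, with the marker shape for the cluster and the colour for the group. Clusters 5 and 4 of the same library lie close together, and the clusters of control P6 lie between 2005 and 3206, all above those of P10.

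Pooled, the 10 genes were found in most nuclei at day 6, but single genes differed widely. In cluster 4 of control P6 libraries 1 to 3, Frmd5 was found in 61.7%, 52.8% and 43.0% of nuclei. Rnf207 was found there in 55.7%, 43.4% and 42.7%, and every other gene in fewer. Rap1gap was found in 4.98%, 6.88% and 8.77% and Tspear in 8.44%, 7.08% and 1.40%. At least 1 UMI of the 10 genes was found in 40.3%, 42.3% and 45.3% of cardiomyocyte-like nuclei of KO P10, in 35.3%, 63.9% and 60.2% of those of control P10 and in 90.6%, 84.8% and 82.1% of those of control P6. UMIs of 3 or more of the genes were found together in 1.76%, 1.59% and 1.07% of KO P10 nuclei, 1.10%, 4.69% and 3.87% of control P10 nuclei and 40.02%, 35.3% and 23.3% of control P6 nuclei. Median depths ranged from 771 to 1083 UMIs per nucleus over these libraries. In fibroblast-like nuclei, at median depths of 632 to 844.5 UMIs, at least 1 UMI of the genes was found in 12.1%, 7.35% and 10.04% in KO P10, 9.06%, 15.75% and 14.2% in control P10 and 55.0%, 38.2% and 30.6% in control P6. With each nucleus thinned to 500 UMIs, the shares of cardiomyocyte-like nuclei were 23.8%, 21.3% and 28.6% in KO P10, 21.1%, 39.6% and 34.7% in control P10 and 74.7%, 68.2% and 68.6% in control P6. The order of the group medians was the same with and without thinning.

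Outside cardiomyocyte-like nuclei the 10 genes behaved in 2 ways at day 6, a division made after the values were seen. With the 3 control P6 libraries pooled and levels taken as a share of all UMIs of the class, Rnf207 in fibroblast-like nuclei came to 3.66% of its level in cardiomyocyte-like nuclei, Rap1gap to 2.58%, Mir133a-1 to 3.73%, Mir133a-2 to 1.12% and Srpk3 to 8.70%. By contrast Frmd5 came to 33.3%, Rab39 to 39.3%, Tmigd1 to 41.5%, Vwa1 to 46.5% and Tspear to 54.3%. Cardiomyocyte marker genes themselves, 10 of them, came to a median of 9.18% (range 5.43% to 41.5%) in the same nuclei, and Ttn to 8.59%. Frmd5, Rab39, Tmigd1, Vwa1 and Tspear thus stood high in fibroblast-like nuclei relative to the median marker, and the others below it.

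The other classes gave a less sharp division. In endothelial-like nuclei of control P6 Vwa1 came to 50.05% of its cardiomyocyte-like level, Tspear to 39.3%, Frmd5 to 33.0%, Tmigd1 to 28.2% and Rab39 to 24.7%, against 12.3% for Srpk3, 11.9% for Rap1gap, 7.20% for Rnf207, 5.18% for Mir133a-2, 2.87% for Mir133a-1 and a marker median of 21.5%. The range of the markers there, 10.6% to 71.9%, held all of Vwa1, Tspear, Frmd5, Tmigd1 and Rab39. In control P6 libraries 2 and 3 alone, Rab39 came to 20.8% and Tmigd1 to 22.4%, below the marker median of 24.3% for those libraries, and Tspear to 24.7%. In endocardial-like nuclei Rab39 came to 44.4% and Frmd5 to 28.9%, against 5.57% for Rnf207, 1.70% for Srpk3 and a marker median of 10.8%. The range of the markers there, 5.95% to 42.3%, held Frmd5. Vwa1 had 9, 8 and 3 UMIs there in control P6 libraries 1 to 3, Tspear 1, 6 and 0, and Tmigd1 1, 3 and 2. Control P6 library 1, taken apart, had higher percentages in fibroblast-like nuclei than libraries 2 and 3 for all 5 genes of wide presence, such as 65.0% against 40.3% for Vwa1 and 59.9% against 33.1% for Rab39. UMIs of cardiomyocyte genes in other nuclei can be free RNA caught in droplets, whose part in these levels was not tested.

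**Figure D5:**
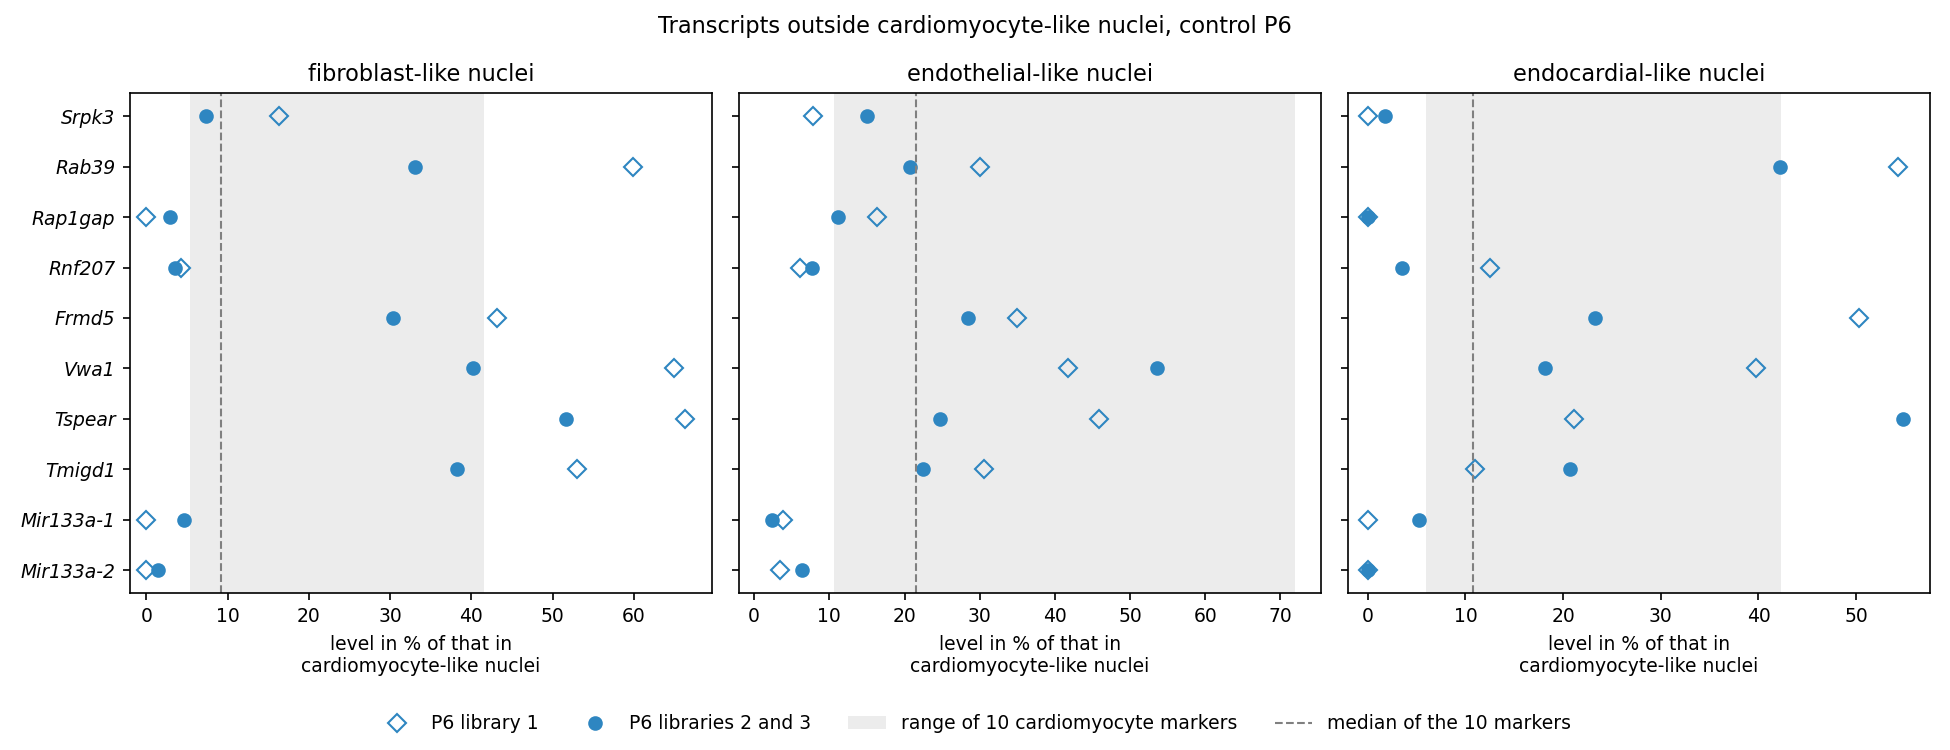
Level of each transcript in nuclei of the fibroblast-like, endothelial-like and endocardial-like classes at control P6, in percent of its level in cardiomyocyte-like nuclei, with an open diamond for library 1 and a filled point for libraries 2 and 3 pooled; the grey band is the range and the dashed line the median of 10 cardiomyocyte markers. In fibroblast-like nuclei Rab39, Frmd5, Vwa1, Tspear and Tmigd1 lie well above the marker median of 9.18%, and Rap1gap, Rnf207, Mir133a-1 and Mir133a-2 lie below it.

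The genes of wide presence were lower at P10 in the other classes too. In fibroblast-like nuclei Frmd5 stood at 67.2, 81.95 and 83.6 CPM in KO P10, at 62.1, 62.4 and 72.9 CPM in control P10 and at 486, 239.7 and 211 CPM in control P6. Control P10 over control P6 was log2 −2.20 ± 0.31 for Frmd5, −1.93 ± 0.40 for Vwa1, −2.53 ± 0.49 for Rab39 and −2.93 ± 0.65 for Tmigd1 (SE). In endothelial-like nuclei it was log2 −1.72 ± 0.35 for Frmd5, −1.83 ± 0.34 for Vwa1 and −1.44 ± 0.50 for Rab39, and in endocardial-like nuclei −2.31 ± 0.49 for Frmd5. Enough counts for a fit were present for 5 of the 10 genes in fibroblast-like, 4 in endothelial-like and 1, Frmd5, in endocardial-like nuclei. For KO P10 against control P10, 0 of the 5 were called in fibroblast-like nuclei, where 3.7% of 8559 genes were called by edgeR in either direction. Their smallest adjusted p was that of Rnf207, at log2 −1.11 ± 0.41 (SE; adjusted p = 0.168), and Rab39 followed at log2 −1.88 ± 0.79 (adjusted p = 0.229). These 2 genes had an unadjusted p under 0.05 in that fit, and DESeq2 was not run on this class. Rab39 had 2, 0 and 3 UMIs there in KO P10 and 0, 11 and 13 in control P10. Tmigd1 had 1, 1 and 3 UMIs in KO P10 and 1, 9 and 0 in control P10. Both passed the filter on low counts through control P6, for which they were chosen, and their KO P10 values rest on few UMIs. In endocardial-like nuclei Frmd5 was not called (log2 0.48 ± 0.52, edgeR adjusted p = 0.824), where 2% of 4440 genes were called in either direction.

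In endothelial-like nuclei 1 of the 4 genes, Rnf207, was called lower in KO P10, where 0.902% of 6652 genes were called lower. Rab39, another of the 4, had 1, 0 and 0 UMIs in KO P10 and 0, 7 and 12 in control P10. It passed the filter on low counts through control P6, with 25, 12 and 12 UMIs, the group it was chosen for. Rnf207 stood there at 68.2, 48.7 and 22.7 CPM in KO P10, at 203, 183 and 182 CPM in control P10 and at 62.6, 53.1 and 66.3 CPM in control P6. Control P10 stood above both other groups without overlap, and KO P10 and control P6 overlapped. Rnf207 fell in KO P10 relative to control P10, with log2 −2.08 ± 0.40 (SE; edgeR adjusted p = 0.00417), and the call was lost without KO P10 library 3 (adjusted p = 0.0566). The sums behind these levels were 6, 5 and 3 UMIs in KO P10 and 15, 75 and 73 UMIs in control P10. Ttn, which marks cardiomyocyte RNA in these nuclei, came to 44.0%, 64.8% and 68.9% of its cardiomyocyte-like level in KO P10 and 65.5%, 47.2% and 51.5% in control P10, and the part of such RNA in the Rnf207 values was not tested.

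Other genes of the pathways in which the 10 take part were read from 9 lists. Their counts stand against 6.51% of all genes called lower and 6.64% higher in KO P10. With age they stand against 8.99% called lower and 8.28% higher. Here, with age means control P10 against control P6, groups that also differed in Xist and Y-linked counts as given above. Of 12 tested genes of the Rap1 cycle, 3 fell in KO P10 and 0 rose (list median log2 −0.30, against 0.01 over all genes). Rap1gap2, a second GTPase-activating protein of Rap1, stood at 24.5, 7.33 and 11.1 CPM in KO P10 and at 107, 76.2 and 106 CPM in control P10. The groups did not overlap, and Rap1gap2 fell, with log2 −2.76 ± 0.34 (SE; edgeR adjusted p = 0.000113), called in 20 of 20 alternative settings. Rapgef2, an exchange factor that loads Rap1 with GTP, fell as well (log2 −1.37 ± 0.33, adjusted p = 0.0124), a call lost without control P10 library 1 and without KO P10 library 3. Sipa1l3, a further GTPase-activating protein, fell too (log2 −1.34 ± 0.40, adjusted p = 0.0352), a call lost in 6 of 20 settings, among them the omission of control P10 library 2 or 3, control P6 library 2 or KO P10 library 2 or 3. With age, 4 of the 12 rose and 0 fell (median 0.51), all activators except the GTPase-activating Sipa1l2. They were Rapgef5 (log2 1.45 ± 0.30, adjusted p = 0.00395), Rapgef2 (0.98), Sipa1l2 (0.93) and Rapgef4 (0.85). Rapgef5 was called in 19 of 20 settings, Rapgef4 in 15, Sipa1l2 in 13 and Rapgef2 in 11, and the last 3 were each lost when control P6 library 2, control P6 library 3, control P10 library 1 or control P10 library 3 was left out.

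Of 12 tested SR protein kinases and SR proteins, the family on which Srpk3 acts, 0 were called in KO P10 by edgeR or DESeq2, 1 at an unadjusted p under 0.05 (median log2 0.01), and 4 fell with age (median −0.45). Srsf2, a splicing factor, fell (log2 −1.35 ± 0.25, SE; edgeR adjusted p = 0.00225) and was called in 20 of 20 settings. Srsf5 (log2 −0.85), Srsf7 (−1.04) and the kinase Srpk1 (−0.77) fell, each lost without any of control P6 libraries 1, 2 and 3, without control P10 library 1 and without control P10 library 3. Srsf5 was called in 14 of 20 settings, Srsf7 in 13 and Srpk1 in 7, the last being lost also with DESeq2, without a filter on low counts, with the replicate block and with only the groups compared. Of 10 tested MEF2 and SRF regulators, 0 were called in KO P10 by edgeR, 1 by DESeq2 and 2 at an unadjusted p under 0.05 (median −0.39), and 5 rose with age, against 8.28% of all genes (median 0.79). Mef2c (log2 0.83 ± 0.22, edgeR adjusted p = 0.0154), a transcription factor of heart muscle, was lost without control P6 library 3 or control P10 library 3 and over all barcodes. Hdac9, a deacetylase that restrains MEF2 proteins, rose (log2 1.03 ± 0.23, adjusted p = 0.00639), called in 20 of 20. Of the genes that rose with age, Mkl2 was called in 19 of 20 settings, Mef2c in 17, Mef2a in 15 and Mkl1 in 11. DESeq2 called 4 genes of this list with age.

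Of 9 tested basement membrane partners of Vwa1, 1 rose in KO P10 and 0 fell (median log2 −0.05). This was Agrn, the heparan sulfate proteoglycan agrin, at 124, 130 and 136 CPM in KO P10 and at 40.003, 47.3 and 38.9 CPM in control P10. The groups did not overlap, and Agrn was higher by log2 1.62 ± 0.22 (SE; edgeR adjusted p = 0.000201), called in 20 of 20 settings. With age 6 of the 9 rose, against 8.28% of all genes, and 0 fell (median 1.08). Among those that rose was the collagen IV gene Col4a1 (log2 1.40 ± 0.23, edgeR adjusted p = 0.00107), called in 20 of 20. The others were less stable, Nid1 and Col6a1 being called in 19 of 20 settings, Col6a2 and Col6a3 in 15 and Col4a2 in 9. Nid1, Col6a1, Col6a2 and Col4a2 were lost over all barcodes. Fibroblast markers, 10 of 10 found, summed to 0.367%, 0.125% and 0.268% of cardiomyocyte-like UMIs in KO P10, 0.138%, 0.184% and 0.182% in control P10 and 0.0752%, 0.0827% and 0.0902% in control P6, and their part in the matrix genes was not tested. Of 9 tested FERM domain relatives of Frmd5, 0 were called in KO P10 by edgeR or DESeq2, 3 at an unadjusted p under 0.05 (median −0.44), and 3 rose with age (median 0.39), led by Frmd6 (log2 1.29 ± 0.24, adjusted p = 0.00221). Frmd6 was called in 20 of 20 settings, Frmd4b in 13 and Epb41l2 in 11, and DESeq2 called 2 of these relatives with age. Of 6 tested relatives of Rab39, 0 were called in KO P10 by edgeR or DESeq2 or at an unadjusted p under 0.05 (median 0.13), and Rab30 alone rose with age (log2 1.24 ± 0.27, adjusted p = 0.00532; lost at a minimum of 1000 UMIs per nucleus).

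Of 9 tested genes reported as miR-133 targets, 2 rose and 2 fell in KO P10 (median log2 0.22). Ctgf, a matrix protein gene, was higher by log2 2.86 ± 0.40 (SE; edgeR adjusted p = 0.000300), and Hcn2, a pacemaker channel gene, was lower by log2 −3.40 ± 0.53 (adjusted p = 0.000686), each called in all alternative settings. Cdc42 (log2 0.82 ± 0.24, adjusted p = 0.0347) and Prdm16 (−0.95 ± 0.23, adjusted p = 0.0129) were lost in 7 and 3 of 20 settings, both without control P10 library 3, KO P10 library 2 or KO P10 library 3. With age 3 of these targets rose and 1 fell (median 0.24). Of the muscle microRNA genes and hosts 2 of 10 could be tested, Mib1 and Myh7b, and Myh7b, the host of miR-499, fell in KO P10 (log2 −1.16 ± 0.29, adjusted p = 0.0143), lost without control P10 library 3 or KO P10 library 2. Of the Rnf207 partners 3 could be tested and 0 were called in either comparison by edgeR or DESeq2, with 2 for KO P10 and 1 for age at an unadjusted p under 0.05. The HERG gene Kcnh2 stood at 47.2, 27.9 and 26.2 CPM in KO P10 and at 40.003, 69.2 and 64.1 CPM in control P10, with overlap through KO P10 library 1 (log2 −0.82 ± 0.28, adjusted p = 0.0653).

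Genes whose level over the 9 libraries was most like the mean profile of the 10 were, in order of Pearson r, Gm29328, Gm19503, Rpl31-ps1, Gm6265, Gm29704, Grik4, Sdk2, Gm15151, Gm17494 and 1600010M07Rik, with r between 0.969 and 0.988 across libraries that share 3 groups. Gm29328 stood at 1.89, 4.40 and 5.04 CPM in KO P10, at 4.80, 9.23 and 11.7 CPM in control P10 and at 117, 78.2 and 73.2 CPM in control P6. Grik4, a glutamate receptor subunit gene, stood at 6.60, 10.3 and 8.07 CPM in KO P10, at 9.60, 17.3 and 16.03 CPM in control P10 and at 39.02, 37.97 and 29.7 CPM in control P6. Both were highest in control P6 without overlap. Over the 8 libraries without control P6 library 1, 5 of these 10 genes were again among the 10 most alike. For the 10 genes themselves r with their own mean lay between 0.814 and 0.983.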

How the data were processed

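Nuclear RNA of 9 ventricle libraries was analysed from deposited counts, which are whole numbers of UMIs for each gene and barcode without normalization. Alignment by the authors used STAR 2.5.2a and the mm10 build, according to the submitters' processing notes. The annotation, the use of strand, the rule for keeping barcodes and which libraries were fresh or frozen are not given in the sources used here. The 10 genes and the 9 lists of related genes (97 genes) were chosen with earlier results of these data known. The genes named from lists were those past the threshold, and the genes of alike pattern were the 10 with the highest Pearson r.

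Mitochondrially encoded genes were left out of sums, as were barcodes under 500 UMIs, 464 barcodes of KO P10 library 2 shared with library 1, and the 5% of each library with the highest Scrublet scores (scanpy 1.11.5, Python 3.11.15). Each nucleus was scaled to 1000 counts on a log scale, 2000 variable genes without the 10 were centred per library, and 30 principal components, 15 neighbours and Leiden clustering (igraph 0.11.9, resolution 1.0) gave clusters. Clusters were named "X-like" from markers of 13 classes, if at least 3 markers were raised 1.5-fold and found in 5% of nuclei. Clusters with Malat1 under 40% of the median stayed unnamed. These detection and Malat1 thresholds were set after the data were seen.

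Counts were summed per library and class and tested with the two-sided F test for quasi-likelihood fits in edgeR 4.0.16 (with R 4.3.3 and limma 3.58.1) over all 9 libraries, with TMM, filterByExpr and Benjamini-Hochberg adjustment over all genes tested, at a threshold of 0.05. DESeq2 1.42.0 was an alternative. The edgeR fit was tested on simulated data. Replicate numbers were checked for pairing, and the correlations of same-numbered libraries of KO P10 and control P10 were 0.108, −0.137 and 0.118, so libraries were not paired. Gene positions are from GENCODE vM21, 1-based.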

Additional observations from a re-analysis of the deposited data

Results flagged for a closer look

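For control P10 over control P6, the values of Rnf207 had opposite signs in endothelial-like and cardiomyocyte-like nuclei. In endothelial-like nuclei every control P10 library, at 203, 183 and 182 CPM, stood above every control P6 library, at 62.6, 53.1 and 66.3 CPM, with log2 1.61 ± 0.31 (SE). In cardiomyocyte-like nuclei every control P10 library stood below every control P6 library, with log2 −0.60 ± 0.29, or −0.36 without control P6 library 1. The difference between the classes was not tested, nor was the part of cardiomyocyte RNA, marked by Ttn, in the endothelial-like values. Ttn in endothelial-like nuclei came to 50.3% of its cardiomyocyte-like level in control P10 and to 20.9% in control P6, and Rnf207 to 30.5% in control P10 and 7.20% in control P6. When nuclei were classed by their own marker UMIs, the endothelial-like value was log2 0.70.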

How the results depend on the processing

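The calls of Rap1gap and Rnf207 in KO P10 kept their direction and side of the threshold in 20 of 20 alternatives in cardiomyocyte-like nuclei, with adjusted p up to 0.0373 and 0.0447. That of Rab39 did in 16 of 20, its log2 value being −1.94 with DESeq2, −1.42 without control P10 library 3, −1.75 without KO P10 library 1 and −1.64 without KO P10 library 3, and the cause was not tested. Uncalled KO P10 values close to 0 changed sign. Leaving out 1 library at a time, log2 values in cardiomyocyte-like nuclei ranged between −0.30 and 0.13 for Srpk3, −0.28 and 0.032 for Vwa1, −0.14 and 0.79 for Tmigd1 and −0.40 and 0.032 for Mir133a-1, positive values of Srpk3, Vwa1 and Mir133a-1 coming without control P10 library 2 and, for Srpk3, KO P10 library 2. Tmigd1 was at −0.095 over all barcodes and between −1.25 and 1.42 in fibroblast-like nuclei. Frmd5 in endothelial-like nuclei ranged between −0.89 and 0.33, and was at −0.034 without a filter on low counts.

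Counts of called genes moved more. Over all barcodes in place of cardiomyocyte-like nuclei, 2587 genes were called for KO P10 against control P10 (main 1356) and 3793 for control P10 against control P6 (main 1781), and at a minimum of 1000 UMIs the second count was 1038. With nuclei classed by their own marker UMIs, the counts were 135 (main 317) and 708 (main 1186) in fibroblast-like nuclei and 46 (main 89) for KO P10 in endocardial-like nuclei. With the replicate block, 264 genes were called for KO P10 in endothelial-like nuclei (main 146), 1436 for KO P10 and 1928 for age in cardiomyocyte-like nuclei, and 3 of the 10 genes were again called lower. Leaving out 1 library at a time, counts for KO P10 ranged between 547 and 1446 in cardiomyocyte-like, 94 and 397 in fibroblast-like, 44 and 226 in endothelial-like and 20 and 123 in endocardial-like nuclei. For age they ranged between 686 and 2201, 418 and 1820, 811 and 1743, and 96 and 525 in the same order, and 2 to 3 of the 10 genes were called lower in KO P10. Low sums limit Rap1gap, Rab39, Tspear, Tmigd1 and both hairpin rows at P10, where single libraries held few UMIs. Rap1gap and Rab39, which were called lower in KO P10, are thus among the genes of low sums. In simulated data with 50 genes of each size, 48 and 50 genes changed by log2 −2 and 2 were called but 16 and 16 of those changed by −1 and 1, so a KO P10 change of such a size could be missed. The changed genes were drawn from those with a mean above 20 UMIs per library. The shares called therefore do not carry over to genes with few UMIs at P10, where larger changes could be missed too.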
